A study of Bos taurus with 15 samples.

Results

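The transcripts of 33 splicing regulator genes were followed in bovine embryos that had been cultured with or without extracellular vesicles of the oviduct (oEVs). The genes are all those in the filtered count table whose bovine symbol is SRSF followed by a number, TRA2A or TRA2B, or a symbol beginning with HNRNP. There were 11 SRSF genes, 2 TRA2 genes and 20 HNRNP genes among the 10832 genes of that table. All 33 were also in the unfiltered table, so none was lost to the filter on low counts, and the smallest count of any of them in a library was 21.

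Each library was made from 1 ng of total RNA from a pool of 8 to 14 bovine blastocysts produced by in vitro fertilization and collected on day 7 of culture according to the labels (the methods give 8 days), with 5 libraries per treatment. Control embryos (Co) received no supplement, FeEV embryos received freshly isolated oEVs, and FoEV embryos received oEVs that had been frozen and thawed. The vesicles came from oviducts of slaughtered cows in the postovulatory stage, and each preparation was split into the fresh and the frozen portion. The authors kept the pools with the best RNA, and nothing in the labels says which pools came from separate cultures, so p-values measure the spread between these pools. The column names of the counts carry a number that can differ from the replicate number of the titles. It is called the pool number here, and its meaning is not stated. FeEV and FoEV share 4 of these numbers, and Co shares 3 with each of them.

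SR proteins bind exonic enhancer sequences through RNA recognition motifs and recruit the splicing machinery through a domain rich in arginine and serine. TRA2A and TRA2B are SR-like proteins that bind purine-rich exonic enhancers. The hnRNP proteins coat nascent transcripts, and several of them oppose SR proteins at the same exons or splice sites. Many genes of both families hold unproductive "poison" exons by which the proteins limit their own transcripts through nonsense-mediated decay. Such switches between isoforms do not appear in gene-level counts unless they change the total.

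The libraries held 2136713 to 4058887 counts on genes. Every FoEV library (3392613 to 4058887) held more counts than every Co library (2571558 to 2977004). Small nucleolar and spliceosomal RNA genes took 0.266% to 0.576% of the counts in FoEV and 0.145% to 0.308% in Co, and ribosomal RNA genes 15.5% to 28.2% with overlapping treatments. All 8 markers of the trophectoderm and all 6 of the inner cell mass, the cell lineages of a blastocyst, were in the filtered table. The summed trophectoderm markers, in CPM (counts scaled by the library total and its TMM factor), ran from 6702 to 9220 in Co, 7138 to 11035 in FeEV and 8648 to 11817 in FoEV. The largest terms of this sum were KRT8 and KRT18, at means of 4266 and 2684 CPM in Co. Of the 8 markers, 7 had a higher fitted level in FoEV than in Co, where 47.7% of all genes had a lower one. GATA2, GATA3, KRT8 and KRT18 were higher with an unadjusted p under 0.05 in edgeR, against 8.18% of all genes. At an adjusted p of 0.05, 0 of the 8 passed. The summed inner cell mass markers ran from 749 to 1067 in Co, 776 to 949 in FeEV and 742 to 988 in FoEV. Here the largest terms were GATA6 and PDGFRA, at means of 437 and 191 CPM in Co, so neither sum shows the lower markers. Of these 6 markers, 4 had a lower fitted level in FoEV than in Co (47.7% of all genes) and 5 in FeEV than in Co (49.0%). NANOG was lower with an edgeR unadjusted p under 0.05 in both (log2 fold changes of -0.84 and -0.62), against 6.88% and 2.32% of all genes. Of 5 cumulus and 5 oviduct markers, 1 each (CYP19A1 and PAX8) passed the filter, with summed levels of all 5 no higher than 39.4 and 14.2 CPM, and the cumulus marker PTX3 was at 0 in every Co and FoEV library. Libraries were brought to equal depth only in an alternative fit, on counts thinned to the smallest total. Whether small RNAs or lineage markers play a part in the values below was not tested. In pooled embryos, fewer cells of a type and less RNA per cell cannot be told apart.

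None of the 33 splicing regulators was called in any of the 3 treatment comparisons at an adjusted p under 0.05 by the quasi-likelihood test of edgeR. Among all 10832 genes, the same test called 0.00923% between FoEV and Co, 0.0% between FeEV and Co and 0.0% between FoEV and FeEV. At an unadjusted p under 0.05, 3 of the 33 passed between FoEV and Co, 1 between FeEV and Co and 1 between FoEV and FeEV. The shares of all genes at that threshold were 15.1%, 4.15% and 8.52%, so the 3 of 33 (9.09%) lay below the background and the other counts were of 1 gene each. At an unadjusted p under 0.001 the counts were 0 in each comparison, against 0.831%, 0.0923% and 0.166% of all genes. The Wald test of DESeq2 and a likelihood ratio test on robust dispersions also called 0 of the 33 at an adjusted p under 0.05 in each comparison. The Wald test called 144, 1 and 3 genes of the whole table, and the robust test 311, 6 and 31.

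The 95% intervals bound the change of each gene in each comparison singly, not of all 33 genes at once. Their furthest bounds between FoEV and Co were -0.45 (HNRNPLL) and 0.38 (HNRNPUL2) on the log2 scale. Between FoEV and Co, the 95% interval of the fold change lay within 1.5-fold in either direction for all 33 genes, against 60.0% of all genes, and within 1.2-fold for 9 of the 33, against 5.93%. Between FeEV and Co, 32 lay within 1.5-fold (66.7% of all genes) and 21 within 1.2-fold (10.1%). Between FoEV and FeEV, 32 lay within 1.5-fold (65.5%) and 14 within 1.2-fold (7.15%). The exception in both of these comparisons was SRSF12, the gene with the fewest counts, whose log2 interval reached 0.61 for FeEV against Co and -0.64 for FoEV against FeEV. The median biological coefficient of variation was 0.102 for the 33 genes, with a range of 0.0857 to 0.162, and 0.148 for all genes. The median SE of the log2 fold change between FoEV and Co was 0.09 for the 33 genes and 0.16 for all genes. Such small errors were not particular to them, since the 7 hnRNP proteins under other symbols had SEs of 0.08 to 0.10 in the same comparison.

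**Figure D1:**
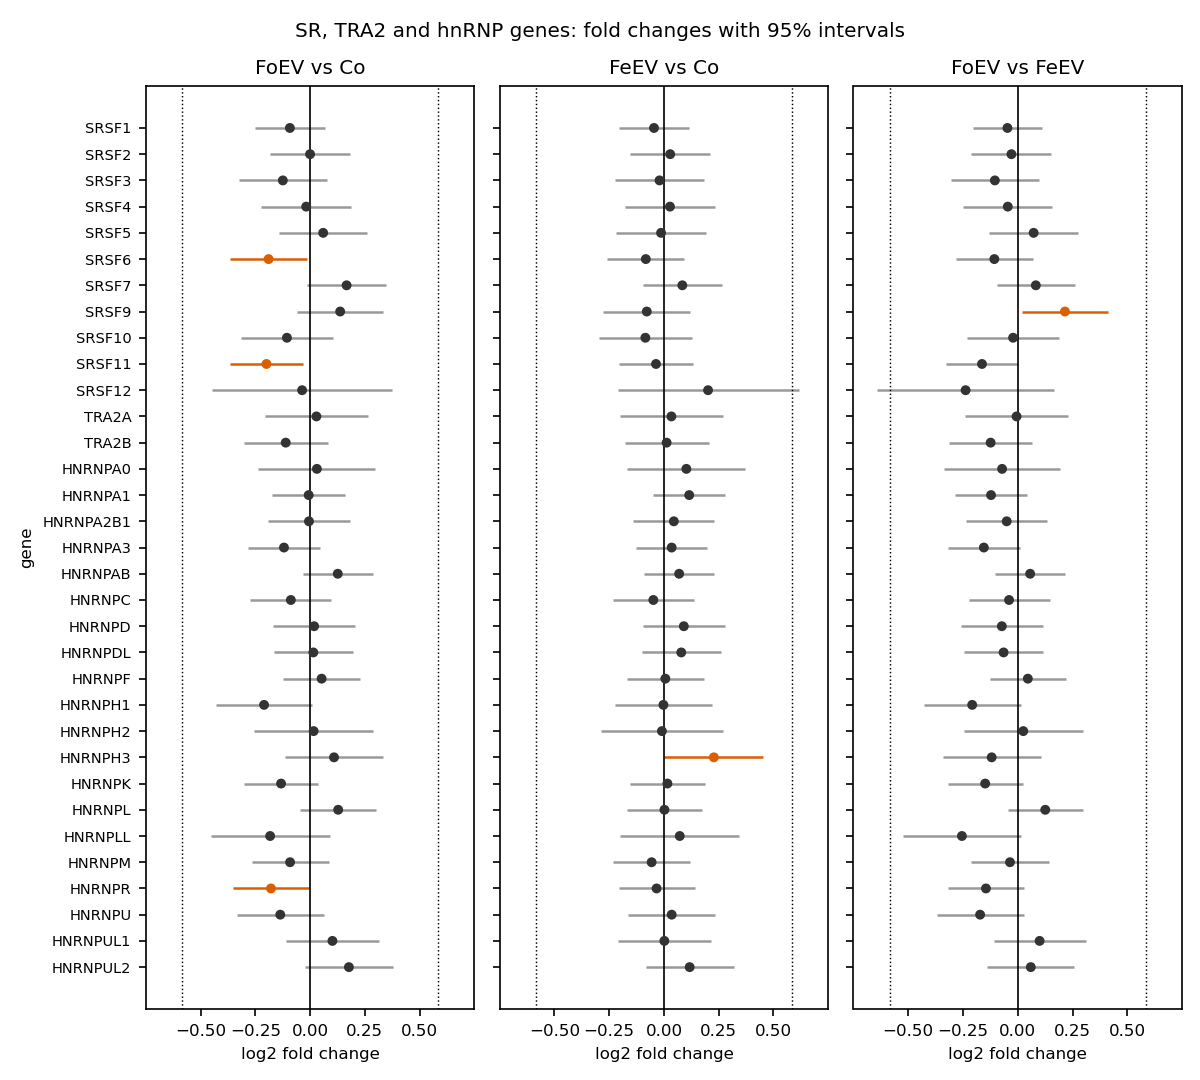
Fitted log2 fold changes (points) and 95% intervals (bars) of the 33 genes in the 3 comparisons, with dotted lines at 1.5-fold and in orange the values with an unadjusted p under 0.05. All intervals between FoEV and Co lie between the dotted lines, and SRSF12 alone crosses one in each of the other comparisons.

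In FoEV embryos compared with Co, SR protein transcripts differed by at most 0.20 on the log2 scale, with SRSF6 and SRSF11 at the low end and SRSF7 and SRSF9 at the high end. Of the 11 SRSF genes, 3 had a higher and 8 a lower fitted level. Those with an unadjusted p under 0.05 were both lower, and over the 33 genes the count was 3 lower and 0 higher, against 6.88% and 8.18% of all genes. No gene of the 33 had FoEV libraries that all lay above or all below the Co libraries, against 1.26% and 1.35% of all genes.

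SRSF11, an SR-related protein that takes part in the recognition of short exons, had 250.5, 261, 215, 229 and 238 CPM in Co replicates 1 to 5, 239.9, 248, 231, 237 and 209 CPM in FeEV, and 214, 204, 191, 222 and 209 CPM in FoEV. The Co and FoEV libraries overlapped through FoEV replicate 4 alone, and the other 4 FoEV libraries lay below all of Co. The log2 fold change of FoEV against Co was -0.20 ± 0.08 (SE), with an interval of -0.37 to -0.03, an unadjusted p of 0.0211 and an adjusted p of 0.240 in edgeR, the smallest adjusted p among the 33. Against FeEV, SRSF11 differed by -0.16 ± 0.08 in FoEV (edgeR adjusted p = 0.581).

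SRSF6, an exonic enhancer-binding SR protein, had 256, 263, 297, 297 and 303 CPM in Co, 288, 249.9, 253, 284 and 262 CPM in FeEV, and 264, 253, 249, 211 and 264 CPM in FoEV. Co replicates 1 and 2 lay within the FoEV range, and FoEV replicate 4 was lowest of the 15 libraries. FoEV differed from Co by -0.19 ± 0.08 on the log2 scale, with an interval of -0.37 to -0.01 and an adjusted p of 0.292 in edgeR. FeEV lay between the other treatments, at -0.08 ± 0.09 against Co.

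SRSF9, an SR protein with a short arginine and serine domain, was the gene whose libraries separated the vesicle treatments. Its levels were 82.6, 79.1, 81.0, 84.7 and 77.7 CPM in FeEV and 92.8, 89.0, 114, 86.1 and 88.1 CPM in FoEV, so every FoEV library lay above every FeEV library. It was the only one of the 33 with such a separation, against 0.757% of all genes higher in FoEV and 0.748% lower, and the only one with an unadjusted p under 0.05 there, against 4.83% higher and 3.69% lower. Co, at 76.2, 79.6, 90.3, 87.1 and 94.4 CPM, overlapped both. The fitted log2 difference of FoEV from FeEV was 0.22 ± 0.09, with an interval of 0.02 to 0.41, and the adjusted p was 0.555 in edgeR. FoEV replicate 3 was far above the other 4 FoEV libraries, and without it the fold change was 0.13 with an unadjusted p of 0.152 in edgeR. On counts thinned to the smallest total the fold change was 0.16 (edgeR unadjusted p = 0.148).

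SRSF1, the SR protein that shifts splicing towards the nearer donor site, varied little. It had 303, 322, 337, 319 and 302 CPM in Co, 287, 328, 292, 317 and 310.1 CPM in FeEV, and 268, 292, 316, 315 and 293 CPM in FoEV. The treatments overlapped, although 3 FoEV libraries lay below all of Co. The fitted difference of FoEV from Co was -0.09 ± 0.08 on the log2 scale, the smallest SE of the 33, and the interval of -0.25 to 0.07 stayed within 1.2-fold.

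SRSF10, an SR-like protein that represses splicing when it is dephosphorylated, had the lowest fold change of the 33 between FeEV and Co. The Co libraries themselves ran from 113 CPM in replicate 1 to 167 CPM in replicate 2, with 143, 165 and 149 CPM in the other three, and FeEV had 149, 156, 118, 138 and 133 CPM. FoEV libraries lay close together at 135, 132, 131, 143 and 143 CPM. The difference of FeEV from Co was -0.08 ± 0.10, within the spread of the Co pools, and ran from -0.17 without Co replicate 1 to -0.03 without FeEV replicate 3.

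The remaining SRSF genes had intervals that included 0 in all comparisons. SRSF7, an SR protein that also takes part in mRNA export, had 110.2 ± 10.7 CPM in Co, 117 ± 4.39 CPM in FeEV and 124 ± 8.66 CPM in FoEV as means of 5 libraries with their SD, and 3 FoEV libraries lay above all of Co. SRSF3, another export adaptor and the smallest classical SR protein, had 141 ± 15.5, 139.6 ± 8.42 and 129.7 ± 15.2 CPM in the same order. SRSF2, which binds exonic enhancers of mixed sequence, had 297 ± 27.8, 303 ± 10.3 and 297 ± 33.5 CPM. The SRSF2 fold change of FoEV against Co rounded to 0.00 ± 0.09, with a bound of 0.18 on either side. SRSF4 (66.2 ± 6.9, 67.5 ± 2.54 and 65.4 ± 6.88 CPM) and SRSF5 (130.0 ± 12.6, 129 ± 8.71 and 135 ± 17.1 CPM), both exonic enhancer-binding SR proteins, had fitted differences between FoEV and Co of -0.02 ± 0.10 and 0.06 ± 0.10 on the log2 scale. SRSF12, a relative of SRSF10, was the least counted at 11.4 ± 2.28, 13.1 ± 3.1 and 11.2 ± 1.98 CPM, and its FeEV mean was raised by replicate 5 at 18.2 CPM.

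The 2 TRA2 genes, whose proteins bind the same class of enhancer, had 95% intervals that included 0 in all comparisons. TRA2A had 82.8, 91.1, 80.9, 70.2 and 75.5 CPM in Co, 91.2, 86.5, 81.6, 86.5 and 65.4 CPM in FeEV, and 78.0, 67.1, 99.7, 80.5 and 84.0 CPM in FoEV. TRA2B had 158, 169.7, 155, 168 and 182 CPM in Co, 184, 171, 157, 168 and 159 CPM in FeEV, and 145, 147, 169, 129 and 178 CPM in FoEV. For TRA2A the FoEV range covered every other library except FeEV replicate 5, while for TRA2B 3 FoEV libraries lay below all of Co and 2 within its range. Against Co, FoEV differed by 0.03 ± 0.11 in TRA2A and by -0.11 ± 0.09 in TRA2B on the log2 scale, with intervals of -0.21 to 0.26 and -0.30 to 0.08. FeEV differed from Co by 0.03 ± 0.11 and 0.01 ± 0.09. The log2 ratio of TRA2B to TRA2A counts averaged 1.05 ± 0.19 (Co), 1.03 ± 0.14 (FeEV) and 0.91 ± 0.20 (FoEV) with the SD of 5 libraries. This ratio depends on transcript length and is read between treatments only, where it overlapped.

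**Figure D2:**
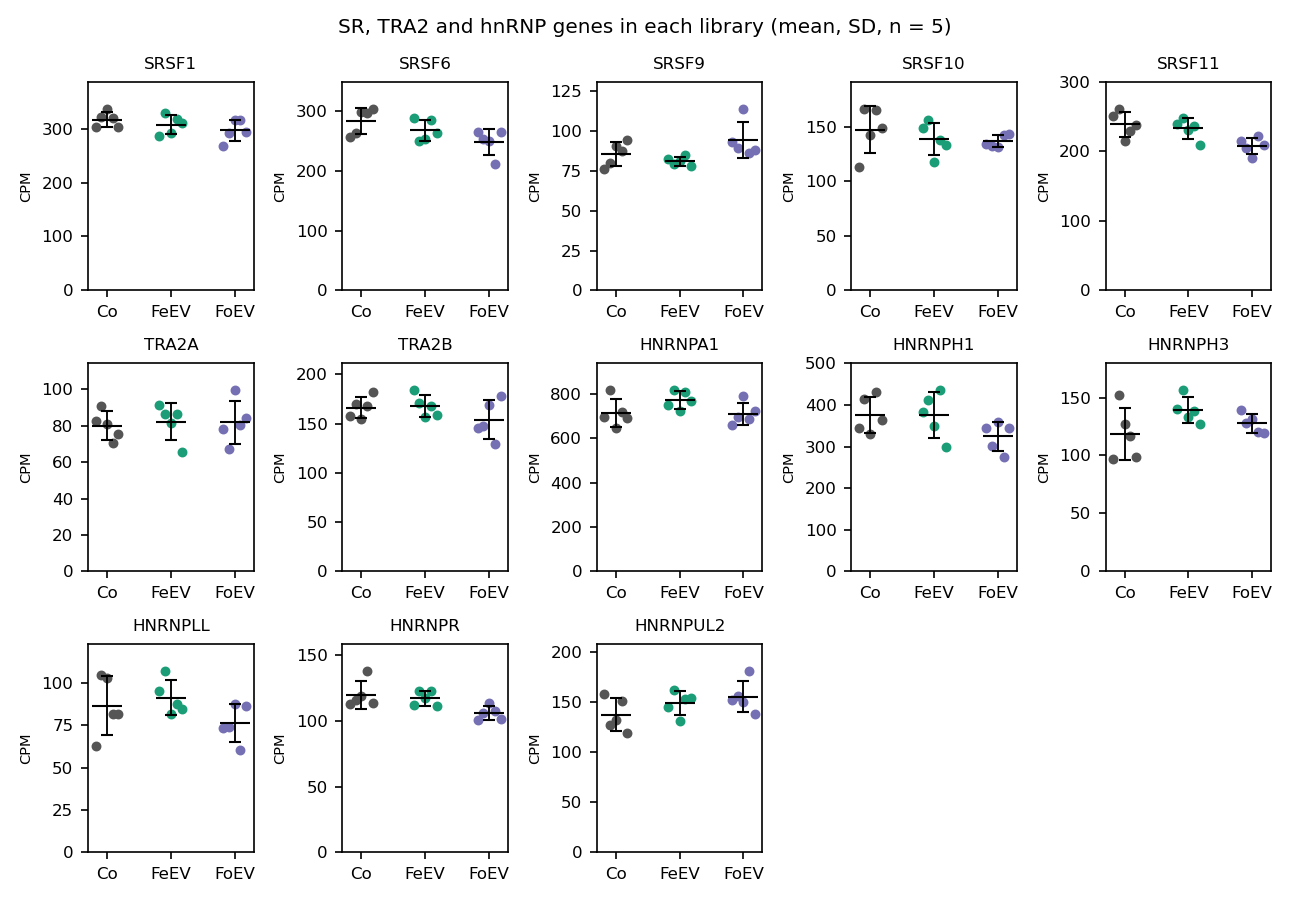
CPM of 13 of the genes in each library (points), with the mean and SD of each treatment of 5 libraries (bars) on axes that start at 0. SRSF9 is the one gene with no overlap between FeEV and FoEV, and SRSF6, SRSF11 and HNRNPR sit lower in FoEV with overlap with Co.

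Among the hnRNP genes, 10 had a higher and 10 a lower fitted level in FoEV than in Co, with a median log2 fold change of 0.00. HNRNPR had the smallest p-value, HNRNPH1 the lowest fold change and HNRNPUL2 the highest. Between FeEV and Co, 15 of the 20 had a higher and 5 a lower fitted level, where 49.0% of all genes had a lower one. The higher ones included 5 of 5 A/B genes, by 0.04 to 0.12 on the log2 scale, none with an unadjusted p under 0.05. They also included every gene of the D, K, L and U groups, so this was not particular to the A/B group. All these genes were measured in the same libraries.

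HNRNPR, which is closely related to the mRNA-binding protein SYNCRIP, had 113, 116, 119, 138 and 114 CPM in Co, 112, 123, 117, 123 and 111 CPM in FeEV, and 100.3, 106, 114, 108 and 101 CPM in FoEV. FoEV replicate 3 alone reached the Co range, and Co replicate 4 stood above the rest of Co. The log2 fold change of FoEV against Co was -0.18 ± 0.08 (interval -0.35 to -0.01, edgeR unadjusted p = 0.0427, adjusted p = 0.312). Without Co replicate 4 it was -0.12, with an unadjusted p of 0.156. On counts thinned to the smallest total it was -0.13 (edgeR unadjusted p = 0.187). Against FeEV, 4 of the 5 FoEV libraries were below all FeEV libraries, with a difference of -0.15 ± 0.08.

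HNRNPH1, which binds runs of guanines, varied widely within each treatment. It had 344, 414, 329.6, 431 and 364 CPM in Co, 384, 413, 349, 437 and 299 CPM in FeEV, and 345, 302, 359, 275 and 344 CPM in FoEV. Co replicates 2, 4 and 5 and FeEV replicates 1, 2 and 4 lay above every FoEV library, and the rest of Co and FeEV lay within the FoEV range. FoEV differed by -0.21 ± 0.11 on the log2 scale from Co and from FeEV, 2 comparisons that share the FoEV libraries, and the edgeR adjusted p-values were 0.356 and 0.592.

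HNRNPH3, a smaller relative in the same group, had the highest fold change between FeEV and Co and was the one gene of the 33 with an unadjusted p under 0.05 there, against 1.83% of all genes higher and 2.32% lower. Its levels were 97.0, 152, 127, 117 and 98.9 CPM in Co and 139.8, 157, 133, 138 and 127 CPM in FeEV, with 139.6, 128, 131, 119.9 and 119.7 CPM in FoEV. Co replicates 1 and 5 were low and Co replicate 2 lay within the FeEV range, so the treatments overlapped. No gene of the 33 separated FeEV from Co, against 0.535% higher and 0.415% lower of all genes. FeEV differed from Co by 0.23 ± 0.11 on the log2 scale, with an unadjusted p of 0.0479 and an adjusted p of 1.00 in edgeR. With the pool number as a block it was 0.12 (unadjusted p = 0.275), and with 1 library left out it ran from 0.16 without Co replicate 1 to 0.33 without Co replicate 2, with unadjusted p-values of 0.149 and 0.00319. Leaving out Co replicate 4 or 5, or any of FeEV replicates 1 to 4, also brought the p above 0.05. HNRNPF (421 ± 27.1, 423 ± 33.8 and 437 ± 40.5 CPM in Co, FeEV and FoEV) and HNRNPH2 (54.5 ± 9.55, 54.5 ± 9.01 and 55.1 ± 6.5 CPM), the other guanine-run binders of the group, had fitted differences between FoEV and Co of 0.05 ± 0.08 and 0.02 ± 0.13 on the log2 scale.

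HNRNPUL2, a relative of HNRNPU linked to the DNA damage response, had 158, 127, 133, 151 and 119.8 CPM in Co, 145, 163, 132, 153 and 154 CPM in FeEV, and 152, 156, 150.4, 182 and 138 CPM in FoEV. FoEV replicate 4 alone lay above all of Co. The fitted difference of FoEV from Co was 0.18 ± 0.10 (edgeR adjusted p = 0.390), and without FoEV replicate 4 it was 0.12. HNRNPUL1 was also highest in FoEV replicate 4, at 215 CPM against 149 to 169 CPM in the other 4, while HNRNPU, the nuclear scaffold protein of the group, had 667 ± 66.3, 684 ± 80.6 and 607 ± 61.7 CPM in Co, FeEV and FoEV.

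HNRNPLL, known from the switch of CD45 exons in lymphocytes, had 62.7, 105, 103, 81.5 and 81.7 CPM in Co, 95.4, 107, 82.0, 87.4 and 84.9 CPM in FeEV, and 73.6, 73.9, 87.6, 60.4 and 86.7 CPM in FoEV. Of the FoEV libraries, 3 lay below all of FeEV. Co overlapped both other treatments. Its log2 fold change of FoEV against FeEV, -0.25 ± 0.13, was the lowest of the 33 there and had an interval of -0.52 to 0.02 (edgeR adjusted p = 0.592). HNRNPL, which binds CA repeats, had 365 ± 24.0, 366 ± 16.2 and 399 ± 42.6 CPM in Co, FeEV and FoEV, so its fitted difference, 0.13 ± 0.08 on the log2 scale, had the opposite sign to that of HNRNPLL.

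HNRNPA1, the textbook opponent of SRSF1 in donor site choice, had 693, 818, 647, 716 and 691 CPM in Co, 750.1, 817, 721, 807 and 768 CPM in FeEV, and 659, 693, 789, 687 and 721 CPM in FoEV. Apart from Co replicate 2, every Co library lay below every FeEV library, and FoEV differed from Co by -0.01 ± 0.08 on the log2 scale. FeEV differed from Co by 0.12 ± 0.08, with an interval of -0.05 to 0.28. The log2 ratio of HNRNPA1 to SRSF1 counts averaged 1.17 ± 0.15 (Co), 1.33 ± 0.03 (FeEV) and 1.25 ± 0.08 (FoEV) with the SD of 5 libraries. It ran from 0.94 to 1.34 in Co, 1.30 to 1.39 in FeEV and 1.12 to 1.32 in FoEV, so the treatments overlapped and the Co pools differed most among themselves.

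The other A/B genes overlapped between treatments. HNRNPA2B1, which also reads methylated adenosines and sorts RNA into vesicles, had 620.4 ± 56.3, 640.3 ± 42.0 and 618 ± 69.5 CPM in Co, FeEV and FoEV, and HNRNPA3 had 674 ± 70.7, 690.3 ± 20.9 and 620.0 ± 29.2 CPM. For HNRNPA3, 4 of the 5 FoEV libraries lay below all of FeEV, with a log2 difference of -0.15 ± 0.08 (edgeR adjusted p = 0.592). HNRNPAB had 364 ± 16.7, 382 ± 20.4 and 397 ± 31.5 CPM, and HNRNPA0, which stabilizes AU-rich mRNAs, had 70.3 ± 6.67, 75.5 ± 6.65 and 72.0 ± 17.2 CPM. The wide FoEV spread of HNRNPA0 came from replicate 4 at 100.5 CPM, against 58.1 to 71.6 CPM in the other 4.

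HNRNPC, which binds uridine tracts, had 209 ± 24.7, 202 ± 17.2 and 197 ± 9.78 CPM in Co, FeEV and FoEV. HNRNPK, which binds cytosine-rich sequences, had 572 ± 38.6, 578 ± 40.0 and 521 ± 48.6 CPM, and 3 FoEV libraries lay below all of Co. HNRNPM, which binds GU-rich sequences, had 314 ± 28.9, 302 ± 19.5 and 295 ± 23.2 CPM. These 3 had lower fitted levels in FoEV than in Co by 0.09 to 0.13 on the log2 scale, with intervals that included 0. HNRNPD, a regulator of AU-rich mRNA decay, had 237 ± 11.6, 252 ± 23.4 and 240.1 ± 28.4 CPM, and its relative HNRNPDL had 195 ± 16.9, 206 ± 14.0 and 196 ± 16.1 CPM, with differences between FoEV and Co of 0.02 and 0.01.

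Seen as a whole, the 33 genes had a median log2 fold change of -0.01 between FoEV and Co (0.01 for all genes), 0.02 between FeEV and Co (0.00) and -0.05 between FoEV and FeEV (0.01). The median between FoEV and Co had no stable sign, at -0.06 without FoEV replicate 3, 0.02 without Co replicate 2, 0.01 without FoEV replicate 1 and 0.00 without FoEV replicate 4, and it was -0.05 with thinned counts. With 1 library left out, the median ran from 0.01 to 0.04 between FeEV and Co and from -0.09 to -0.03 between FoEV and FeEV. No score over the set was tested. Fitted levels were lower for 19 of 33 between FoEV and Co (47.7% of all genes), 12 between FeEV and Co (49.0%) and 24 between FoEV and FeEV (48.2%). The FeEV against Co split of 21 higher to 12 lower was 19 to 14 with size factors of DESeq2 and 18 to 15 with ribosomal RNA genes removed. The 3 comparisons share libraries in pairs, so these splits are not independent. The summed SR and TRA2 genes made up 0.206% ± 0.0219 (Co), 0.208% ± 0.0178 (FeEV) and 0.198% ± 0.0175 (FoEV) of the filtered counts, as means and SDs of 5 libraries. The summed hnRNP genes made up 0.644% ± 0.0856, 0.677% ± 0.0526 and 0.631% ± 0.0522. These totals include ribosomal RNA genes, whose share differed between libraries. With those genes left out of the total, the 33 genes made up 1.09% ± 0.0770, 1.12% ± 0.0727 and 1.05% ± 0.0474. The ratio of the hnRNP to the SR and TRA2 sum was 3.12 ± 0.164, 3.25 ± 0.101 and 3.19 ± 0.123, with overlapping libraries.

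**Figure D3:**
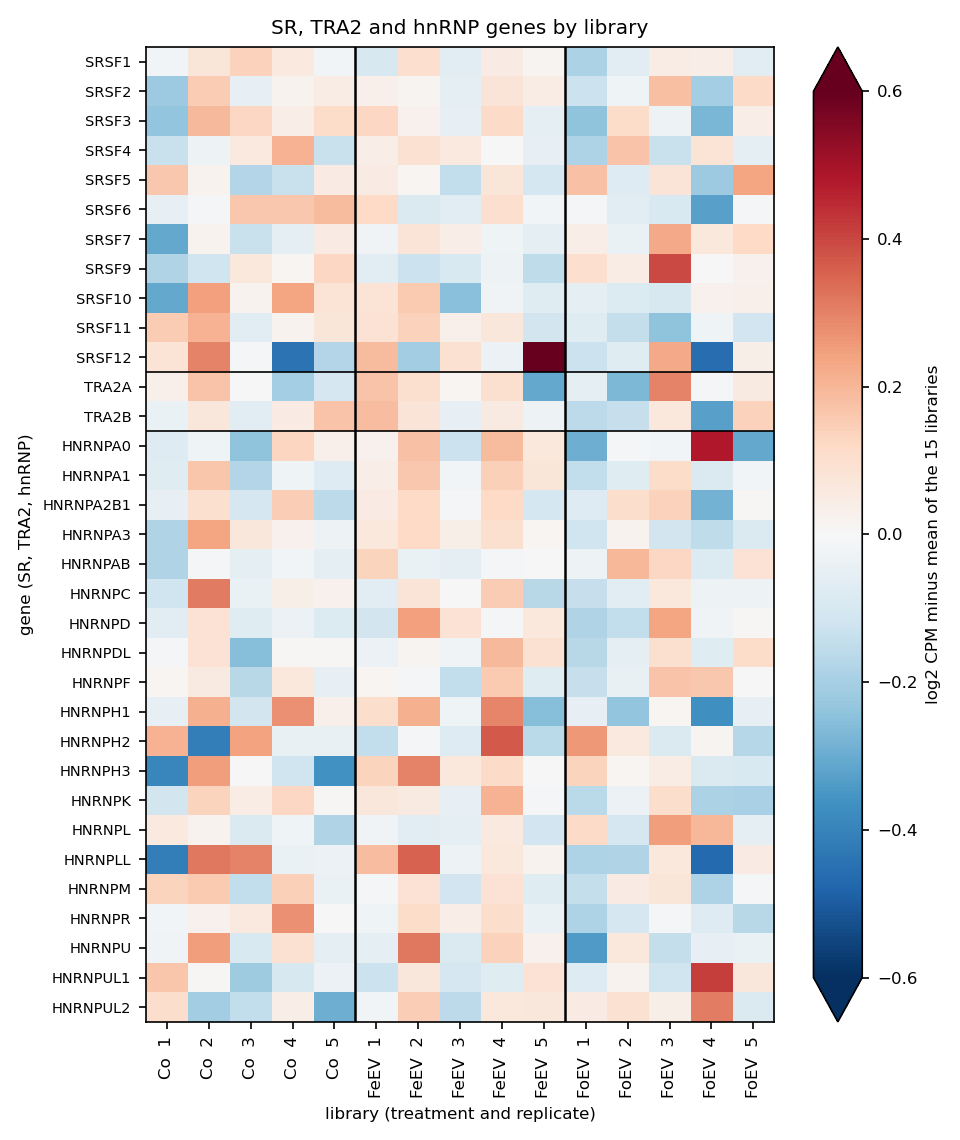
Log2 CPM of each gene (rows, SR then TRA2 then hnRNP) in each library (columns, by treatment) minus its mean over the 15 libraries, with colours from -0.6 to 0.6 and darker tips beyond. No treatment forms a block of one colour, and columns such as Co replicate 2 and FoEV replicate 3 are mostly red.

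In some pools many of the 33 genes stood high or low together. In Co replicate 2, 17 of the 33 were higher than in any other Co library, and the median deviation from the Co mean was 0.11 on the log2 scale. In FoEV replicate 3, 17 were the highest of FoEV, with a median deviation of 0.10, and in FeEV replicates 2 and 4, 13 each were the highest of FeEV. At the low end, Co replicate 1 and FeEV replicate 5 each held the lowest value of their treatment for 14 genes, and FeEV replicate 3 and FoEV replicate 4 for 13. Median deviations of the 33 genes ran from -0.07 to 0.11 over the 15 libraries, and those of all genes from -0.01 to 0.01. A median over 33 genes varies more than one over 10832, and genes of 1 library share its RNA and amplification. The ribosomal RNA share was 15.5% in Co replicate 2, 20.7% in FoEV replicate 3, and 26.0% and 20.2% in FeEV replicates 2 and 4, and its part in these shifts was not tested. Sharing a pool number, Co replicate 4, FeEV replicate 4 and FoEV replicate 3 had 24, 25 and 25 genes above their treatment mean. Sharing others, Co replicate 3, FeEV replicate 3 and FoEV replicate 2 had 13, 5 and 15. Co replicate 2 and FeEV replicate 1 had 27 and 19, and Co replicate 5 and FoEV replicate 4 had 11 and 13. FeEV replicate 2 and FoEV replicate 1 had 24 and 7, and FeEV replicate 5 and FoEV replicate 5 had 7 and 22. The part of this number was not tested. Without Co replicate 2 and FoEV replicate 3, 0 of the 33 were called in any comparison, and 2, 2 and 4 had an unadjusted p under 0.05 in edgeR between FoEV and Co, FeEV and Co, and FoEV and FeEV. SRSF11 was no longer among them, at -0.14 between FoEV and Co with an unadjusted p of 0.119.

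**Figure D4:**
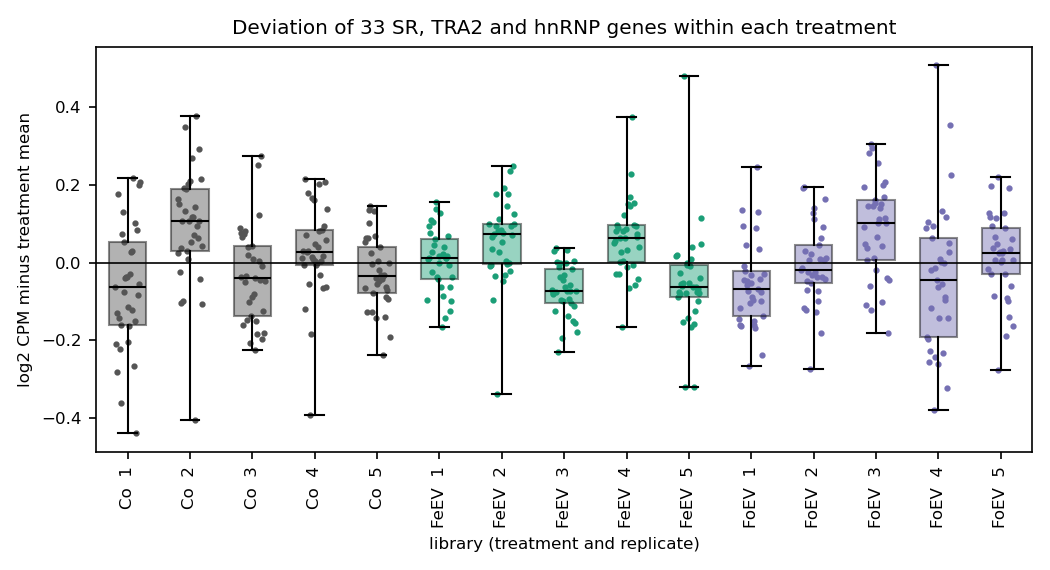
Deviation of the 33 genes (points) in each library from the mean log2 CPM of their treatment, with boxes at the quartiles, a line at the median and whiskers at the lowest and highest gene. Medians are highest in Co replicate 2 (0.11) and FoEV replicate 3 (0.10) and lowest in FeEV replicate 3 (-0.07).

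Genes that act on or beside these proteins were counted in lists. Of 13 kinases, importins and related factors of SR proteins, 12 were in the filtered table (SRPK3 was not). At an adjusted p under 0.05, edgeR called 0 of them in any comparison. At an unadjusted p under 0.05, 1 was higher and 2 lower between FoEV and Co, against 8.18% and 6.88% of all genes. Between FeEV and Co 0 passed (4.15% of all genes), and between FoEV and FeEV 1 was lower (3.69%). The 2 with the smallest p were TNPO1, an import receptor of HNRNPA1, at 345 ± 22.6 CPM in Co and 300.2 ± 19.3 in FoEV (log2 fold change -0.20 ± 0.08, edgeR adjusted p = 0.232), and the kinase PRPF4B at 199 ± 16.8 and 172 ± 15.7 CPM (-0.21 ± 0.09, adjusted p = 0.263). The median log2 fold change of the list between FoEV and Co was -0.09.

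The 7 hnRNP proteins under other symbols were all tested. Even at an unadjusted p of 0.05, 0 passed in any comparison, against 15.1%, 4.15% and 8.52% of all genes. SYNCRIP, the relative of HNRNPR, had a fitted difference of FoEV from Co of -0.17 ± 0.09 (edgeR adjusted p = 0.387), close to the value of HNRNPR itself, and PCBP1, a binder of cytosine-rich RNA, differed by 0.07 ± 0.08. Of 37 other splicing regulators, 0 were called, with 3 higher and 3 lower at an unadjusted p under 0.05 between FoEV and Co, 0 between FeEV and Co, and 2 higher and 2 lower between FoEV and FeEV. RBM25 had 248 ± 22.7 CPM in Co and 196 ± 14.8 in FoEV (-0.34 ± 0.09, edgeR adjusted p = 0.118) and SFPQ, a paraspeckle protein, had 463 ± 53 and 361 ± 46.5 CPM (-0.36 ± 0.10, adjusted p = 0.137). Both fitted differences were further from 0 than that of any of the 33 genes in this comparison. Of 18 genes of nonsense-mediated decay, 0 were called, with 2 higher and 1 lower at an unadjusted p under 0.05 between FoEV and Co and 0 in the other comparisons. The exon junction proteins MAGOH (31.1 ± 1.7 and 37.0 ± 3.81 CPM in Co and FoEV, 0.25 ± 0.11, edgeR adjusted p = 0.294) and EIF4A3 (78.6 ± 4.81 and 90.1 ± 6.97 CPM, 0.20 ± 0.09, adjusted p = 0.316) had the smallest p. The median log2 fold changes of these 3 lists between FoEV and Co were -0.04, -0.06 and 0.06, against 0.01 for all genes.

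For some of the genes, reads could also belong to a copy or to an overlapping gene. LOC510631, described as similar to HNRNPA2B1, had 0 to 37.1 CPM against 513 to 692 CPM for HNRNPA2B1 itself, and the sources used here do not state how reads shared by copies were counted. Other genes overlap SRSF2 (METTL23), HNRNPA0 (KLHL3), HNRNPA1 (NFE2), HNRNPDL (ENOPH1) and HNRNPUL1 (TGFB1) in a later annotation. These had far fewer counts, with a mean of 14.2 per library for METTL23 against 943 for SRSF2, and at most 60.3 for ENOPH1 against 624.8 for HNRNPDL. The same annotation places a long noncoding RNA gene over HNRNPLL (LOC132346554) and another over HNRNPUL1 (LOC132342854), neither of which is in the count tables used here, and a microRNA gene within each of HNRNPA3 and HNRNPK. The libraries were strand selected, but the strand setting of the counting is not given in the sources used here. Levels were compared between treatments and not between genes, since transcript lengths were not at hand.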

How the data were processed

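The authors prepared libraries with the Ovation SOLO kit, which cleaves ribosomal RNA inserts and selects 1 strand, and sequenced single-end reads. Reads were mapped to ARS-UCD1.2 (bosTau9) with the NCBI annotation. The submitters' processing notes name Trim Galore 0.4.3.1, HISAT2 2.1.0 and featureCounts 1.6.3, whereas the methods name QuasR Qcount. The deposited tables hold raw counts per gene from the authors, without normalization, for 34773 genes and for 10832 kept after a filter on low CPM, and the counts of shared genes were identical.

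Here, filtered counts were scaled by TMM and fitted in 1 model over 15 libraries with treatment as the only factor (edgeR 4.0.16, estimateDisp, glmQLFit with robust=TRUE, glmQLFTest, R 4.3.3), with Benjamini-Hochberg adjustment over all 10832 genes. Standard errors are the absolute log2 fold change over the square root of F, and 95% intervals use the t distribution with the fit's degrees of freedom. CPM were computed on the filtered counts with TMM-scaled library totals. The fit was run on simulated counts, with the same dispersion for every gene and with larger changes than those fitted for the 33 genes. That run does not show how well changes as small as these are found. Library pairs within a treatment differed beyond counting noise (chi-square per degree of freedom 3.73 to 30.1 over 30 pairs). Expected counts came from raw library totals without TMM and with ribosomal RNA genes included, so differences in the ribosomal RNA share enter these values. Totals of 2136713 to 4058887 counts per library set the precision, and whether copies made by amplification were removed is not given in the sources used here. Tables and figures used Python 3.11.15, numpy 2.4.6, pandas 2.3.3, scipy 1.17.1 and matplotlib 3.10.9. Gene identifiers were matched to symbols in a RefSeq table of a later assembly (10709 of 10832), whose gene positions were used only to list genes that overlap the 33 and are not printed.

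The genes, lists and tests were chosen with earlier results of these data known. Values in every library are given for genes with an unadjusted p under 0.05 in a comparison, for the highest and lowest fold change of each comparison, and for TRA2A, TRA2B, SRSF1 and HNRNPA1. From each other list, the 2 genes with the smallest p between FoEV and Co are named. Other genes are given by means and by features noticed afterwards. Alternatives were DESeq2 size factors, the Wald test of DESeq2 1.42.0, robust dispersions with a likelihood ratio test, no filter, the filter stated in the methods, only the groups compared, blocks by replicate or pool number, thinned counts and leaving out each library. Removing ribosomal RNA genes and leaving out Co replicate 2 with FoEV replicate 3 were added after seeing the data. Isoforms, exons and sequences were not analysed here.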

Additional observations from a re-analysis of the deposited data

Results flagged for a closer look

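Among 99 groups of 5 libraries (33 genes in 3 treatments), 6 held a library whose gap to the nearest other library, divided by the range of the group, exceeded 0.71, and chance gives about 1 in 20. SRSF9 was at 114 CPM in FoEV replicate 3 against 86.1 to 92.8 CPM in the other FoEV libraries, and this library enters its difference from FeEV. HNRNPR was at 138 CPM in Co replicate 4 against 113 to 119 CPM in the rest of Co, and it enters the difference from FoEV. HNRNPD was at 257 CPM in Co replicate 2 against 229 to 237 CPM, in the library where most of the 33 genes were highest. HNRNPDL was low in Co replicate 3, at 166 CPM against 198 to 211 CPM. HNRNPAB was at 416 CPM in FeEV replicate 1 against 365 to 379 CPM, and HNRNPH2 at 70.1 CPM in FeEV replicate 4 against 48.3 to 53.8 CPM. The causes were not tested.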

How the results depend on the processing

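At an adjusted p under 0.05, 0 of the 33 genes were called in each comparison under all alternatives run. Fold changes were followed through the alternatives for genes with an unadjusted p under 0.05 in a comparison. The highest and lowest fold change of each comparison were followed as well. All of these kept their direction. Fold changes of TRA2A, TRA2B, SRSF1, HNRNPA1 and the genes of the other lists were not followed. The number with an unadjusted p under 0.05 moved, as counts this small do. Between FoEV and Co it was 3, and 1 with only the groups compared, and it ran from 1 to 7 when each library was left out (7 without Co replicate 1, 5 without FoEV replicate 3, 1 without Co replicate 4). Between FeEV and Co it was 1, and 0 with DESeq2 size factors, the Wald test of DESeq2, only the groups compared, the pool number as a block, thinned counts or ribosomal RNA genes removed. It was 2 without both Co replicate 2 and FoEV replicate 3, and 0 to 2 with each library left out (0 without Co replicates 1, 4 or 5 or FeEV replicates 1 to 4, 2 without Co replicate 2). Between FoEV and FeEV it was 1, and 3 with the Wald test, 2 with no filter, only the groups compared or thinned counts, and 4 without Co replicate 2 and FoEV replicate 3. It ran from 0 to 3 with each library left out (0 without FeEV replicate 2, 3 without FoEV replicates 2 or 3, 2 without FeEV replicate 5 or FoEV replicates 4 or 5). With the replicate block by title number it was 5, and with the block by pool number 0. Residuals of libraries with the same title number correlated by 0.03, 0.14 and 0.19 on average, against -0.01, -0.03 and -0.05 for other pairs. The lowest was -0.29, between FoEV and Co, and 1, 2 and 2 of 5 correlated best with their own number. For the pool number the averages were 0.08, 0.10 and 0.07, against -0.01 for other pairs in each comparison. So few pairs cannot settle whether either number pairs the libraries. Over all genes, calls between FoEV and Co were 1 in edgeR, 57 with the replicate block, 144 with the Wald test and 311 with robust dispersions. The pool number as a block gave 0.12 for HNRNPH3 and -0.19 for SRSF10 between FeEV and Co. Between FoEV and Co this block gave -0.15 for SRSF11 and -0.24 for SRSF6. Other causes of these moves were not tested.

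With 5 pools per treatment, 2136713 to 4058887 counts per library and SEs of 0.08 to 0.20, the interval stayed within 1.2-fold for only 9 (FoEV and Co), 21 (FeEV and Co) and 14 (FoEV and FeEV) of the 33 genes, and smaller changes than the intervals were not detectable. Gene-level counts do not show isoform switches, and pools of embryos do not show single embryos.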
